A study of Danio rerio with 2 samples.

Results

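The genes described here encode the proteins of the cytosolic ribosome, measured in liver RNA of zebrafish (Danio rerio) on a high-fat diet. They were taken by name, from every row of the gene table whose deposited symbol or zebrafish name begins as a large-subunit name (rpl, rplp) or a small-subunit name (rps, rpsa), leaving out the 11 genes of the S6 kinase family. The rule found 90 of 25939 genes, 52 named for the large subunit and 38 for the small. Each of the 2 libraries was made from poly(A)-selected liver RNA of fish given this diet. In 1 the fish were wild type, and in the other they were ambp knockouts (ambp-/-). The gene ambp encodes the precursor of alpha-1-microglobulin and bikunin, proteins that the liver secretes. The sources used here do not state the lesion in ambp, the strain, how many fish each library pools, their sex, their age or how long they were fed.

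A ribosome is built from RNA strands and a fixed set of proteins, most of them present once per particle, so their genes are expressed together and at high level in every growing or secreting cell. In mammals their messages start with a run of pyrimidines that puts their translation under the control of the kinase mTOR, and a large group of nucleolar factors assembles the proteins onto ribosomal RNA. Hepatocytes, which export most plasma proteins, hold many ribosomes.

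With 1 library per genotype no test across genes was made, and each difference describes these 2 libraries without a replicate check. Intervals are exact 95% intervals and cover counting error only. Levels are in CPM, counts relative to a library size scaled by TMM, and log2 ratios are knockout over wild type with a pseudocount of 1 CPM. Estimated reads summed to 15659846 for wild type and to 18357830 for the knockout. In the wild-type library ambp stood at 3506 CPM (3475 to 3536), and in the knockout at 154 CPM (149 to 159). The 13 hepatocyte marker genes, such as apoa2 and tfa, took 19.9% of reads in the first library and 20.8% in the second, and none was at 0. On the TMM scale their median log2 ratio was -0.26, with 8 below 0 and 5 above, where 49.8% of all measured genes lay above 0. Of 16 measured exocrine pancreas markers, 14 were at least 2-fold higher in the knockout, where 5.4% of all measured genes were. That list took 0.0563% of knockout reads against 0.00556% of wild-type reads, and none of its genes was at 0. All 6 erythroid markers were lower, where 49.8% of all measured genes were higher. The marker closest to equal, gata1a, had 17 and 23 reads and a ratio of 0.968 (0.495 to 1.93), and library totals turn it above 0. The erythroid markers took 0.0425% of wild-type and 0.0293% of knockout reads, with none at 0. Macrophage markers took 0.0374% and 0.0540% of reads, with 4 of 15 genes at 0 in wild type and 3 in the knockout. Neutrophil markers took 0.00314% and 0.00886%, with 3 of 9 at 0 in wild type and 2 in the knockout. Lymphocyte markers had 18 wild-type and 73 knockout reads over 9 genes, 3 and 1 of them at 0. Ovary markers had 49 and 16 reads over 7 genes, 4 of them at 0 in both libraries. The part of these cells in the ribosomal results was not tested. In RNA from whole tissue, fewer cells of a type and less RNA per cell cannot be told apart.

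Ribosomal protein genes were among the most expressed genes of both livers and took a similar share of reads in each. The members together had 913460 wild-type reads and 1103868 knockout reads. That was 5.83% of wild-type reads (5.82 to 5.84) and 6.01% of knockout reads (6.002 to 6.024). Without mitochondrial transcripts in the total the order turned, to 6.72% (6.70 to 6.73) and 6.64% (6.63 to 6.65). The large subunit held 60.7% of the members' reads in wild type (60.6 to 60.8) and 60.1% in the knockout (60.0 to 60.2), so the balance between subunits moved by less than 1 percentage point.

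The 90 names were not all subunits, and 3 had no reads. The genes without reads in either library were rps11l and second entries of rpl9 (ENSDARG00000116939) and rpl38 (ENSDARG00000111040). The other 87 all passed the filter of 1 CPM in a library. Among them, rps19bp1 encodes a binding partner of the rps19 protein and rpl7l1 a nucleolar relative of rpl7. Another, ENSDARG00000101794, carries the symbol RPL26 in the deposited table but the zebrafish name atp6v0e1, a subunit of the vesicular proton pump. With this gene taken by its zebrafish name, that left 84 measured genes of the subunits themselves. Of the 80 proteins of the vertebrate ribosome, 78 had at least 1000 reads in both libraries. The gene rpl27a, for a large-subunit protein, had only 21 and 28 reads, at an assembled locus without an Ensembl identifier, and rpl41 was not analysed here. Another assembled locus carried rps20, for a small-subunit protein, with 9181 and 12131 reads.

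**Figure D1:**
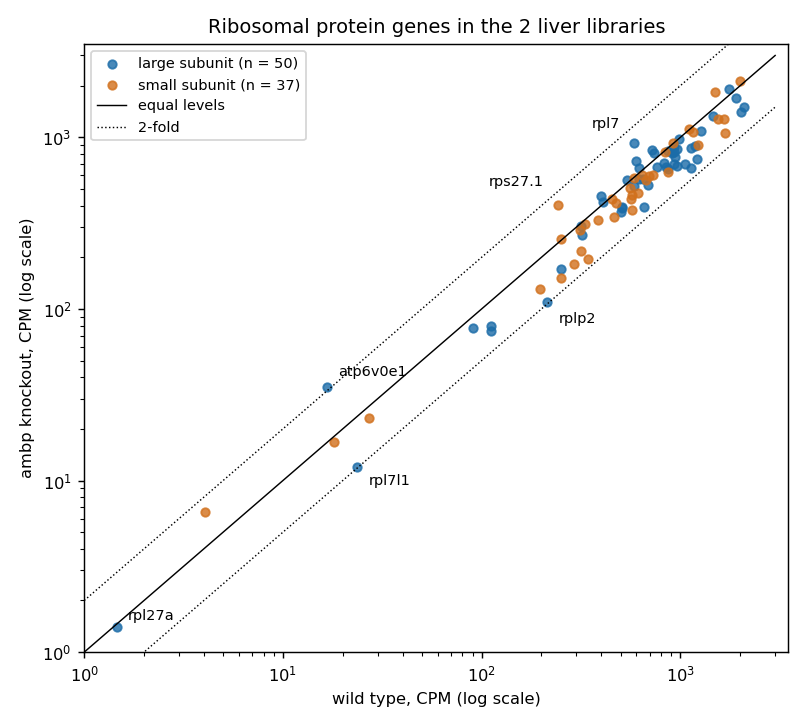
Level of each of the 87 measured ribosomal protein genes in wild-type (x axis) and ambp knockout liver (y axis), in CPM on log scales, with lines of equal level and of 2-fold difference. Most points lie a little under the line of equal level, rps27.1 and rpl7 lie above it, and rplp2 lies close to the lower 2-fold line.

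Per length, most subunit genes lay within a narrow band. In the deposited FPKM values (reads scaled by gene length and library size), the median level over the 84 subunit genes was 871 for wild type, with quartiles of 614 and 1190. For the knockout the median was 937, with quartiles of 626 and 1168. The large subunit had a median of 879 FPKM in wild type over 48 genes and the small subunit 854 over 36. In the knockout these medians were 988 and 826. Gene by gene the subunits differed little, with a median log2 ratio of FPKM, knockout over wild type, of 0.026 over large-subunit members and 0.015 over small-subunit members. The gene with the highest wild-type FPKM was rpl6, of the large subunit, at 2293 FPKM and 1954 FPKM in the knockout. It was followed by rps27a, which is made as a fusion with ubiquitin, at 2287 and 1735 FPKM. In the knockout rps2, at the messenger RNA entry of the small subunit, was highest, at 2518 FPKM against 1978 in wild type. The remaining genes of the top 6 by mean level were rps9 (1908 and 2175 FPKM), rpl7a (1937 and 1988 FPKM) and rpl32 (2019 and 1853 FPKM).

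At the low end of the FPKM scale stood relatives of subunit genes, genes that are not subunits and an assembled locus. The assembled rpl27a locus had 5.59 and 6.36 FPKM, and rps27l, a relative of rps27, had 21.1 and 23.4. Also among the lowest 6 were rps19bp1 (11.8 and 11.9 FPKM), rpl7l1 (21.0 and 12.6 FPKM) and atp6v0e1 (17.9 and 45.7 FPKM). Some low FPKM values rest on a long gene model. The length implied by count, FPKM and library total had a median of 688 bases over the measured members. It exceeded 2000 bases for 5 of them, namely rps3 (3493 bases in both libraries), zgc:171772 (3216 bases), rpl35a, rpsa and rps19bp1. For rps3, a small-subunit protein at the entry of the messenger RNA channel, the FPKM was 177 in wild type and 176 in the knockout, although its level was 673 and 565 CPM. For 86 of the 87 the lengths implied by the 2 libraries differed by no more than 5%, the exception being rps19 (543 and 589 bases).

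As a group the ribosomal protein genes stood slightly lower in the knockout on the TMM scale, and equal or slightly higher by library totals. The median log2 ratio over the 87 measured members was -0.22, with 70 below 0 and 17 above. The 17 are 19.5% of the members, where 49.8% of all 11634 measured genes lay above 0 and the median of all genes was -0.00. Library totals add 0.25 to every log2 ratio, which turned the members' median to 0.03 and put 48 of the 87 members above 0. With that scaling 64.7% of all measured genes lay above 0, and the median of all genes was 0.22. Relative to the median of all genes, the members' median stood at -0.21 with TMM, -0.18 with library totals and -0.16 with FPKM. A change of library size moves both medians alike, apart from the pseudocount and the filter, so these values cannot check the scaling. The difference depended on level, at -0.12 among genes at 10 CPM or more and -0.013 among genes at 100 CPM or more. The 2 subunits had the same median, -0.22 over 50 large-subunit members and -0.22 over 37 small-subunit members.

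The members' median was close to that of other abundant genes. The 777 other genes with at least 100 CPM in a library had a median log2 ratio of -0.20, and 37.1% of them lay above 0. The members' median was 0.02 below that of these genes with TMM and 0.07 below it with library totals. The members' ratios spread less than those of either background. The range between their quartiles was 0.39 on the log2 scale, against 0.79 for all measured genes and 0.82 for the other abundant genes. Of the members, 75.9% lay within 0.5 of a log2 ratio of 0, against 60.1% of all measured genes and 57.9% of the other abundant genes. The levels of the 85 members with at least 100 wild-type reads had a Pearson r of 0.97 between the libraries on the log2 CPM scale, and a Spearman rho of 0.95. The log2 ratio showed little relation to implied length over these genes, with a Pearson r of 0.01 and a rho of 0.06. These are descriptions over genes that share the same 2 libraries.

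**Figure D2:**
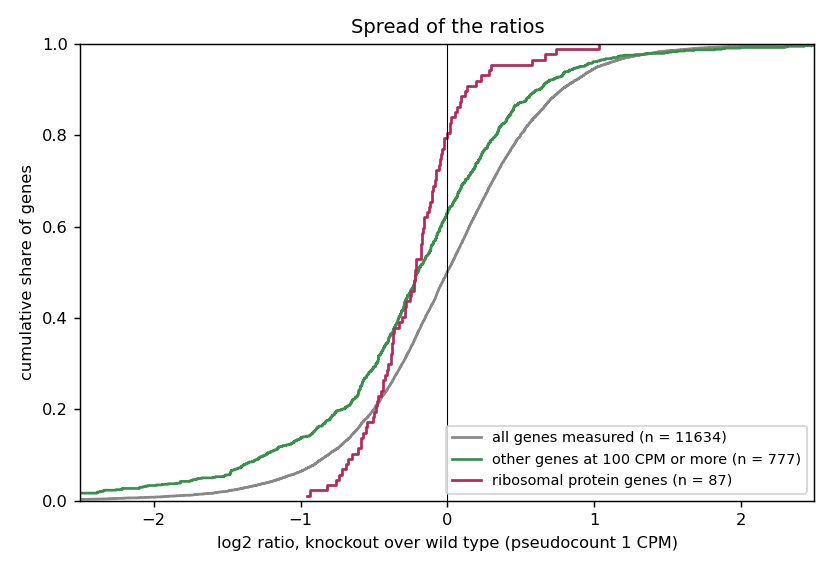
Cumulative share of genes (y axis) by log2 ratio of knockout over wild type with a pseudocount of 1 CPM (x axis), for the 87 measured ribosomal protein genes, the 777 other genes at 100 CPM or more and all 11634 measured genes. The curve of the ribosomal protein genes is the steepest and has its median at -0.22, close to that of the other abundant genes at -0.20.

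By the 2-fold size rule 1 member (1.15%) was higher and none was lower in the knockout, where 5.4% of all measured genes were higher and 6.4% lower. The member past 2-fold was atp6v0e1, which the deposited table names RPL26. Taken by its zebrafish name it is a proton pump gene, and then none of the 84 subunit genes differed 2-fold. Setting it apart from the subunits was not planned beforehand. Among the other abundant genes the rule took in 3.86% as higher and 13.6% as lower. At 1.5-fold, 3 members (3.45%) were higher and 12 (13.8%) lower, where 16.4% of all measured genes were higher and 16.9% lower, and among the other abundant genes 10.7% and 25.2%. Counting error was small beside the differences among members, since 81 of the 87 had at least 1000 wild-type reads. For 75 members the counting interval of the ratio left out the members' own median, 37 lying above it and 38 below. TMM, DESeq2 size factors and library totals move all ratios by the same amount, apart from the pseudocount, so differences between members do not depend on the choice among these. Deposited FPKM values move the ratios nearly but not exactly alike, since the implied lengths of 86 of the 87 differed by no more than 5%. The ratio of rpl7, with the same length in both libraries, was 1.59 in CPM and 1.89 in FPKM. That of rps19, the exception in length, was 0.906 and 0.996.

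**Figure D3:**
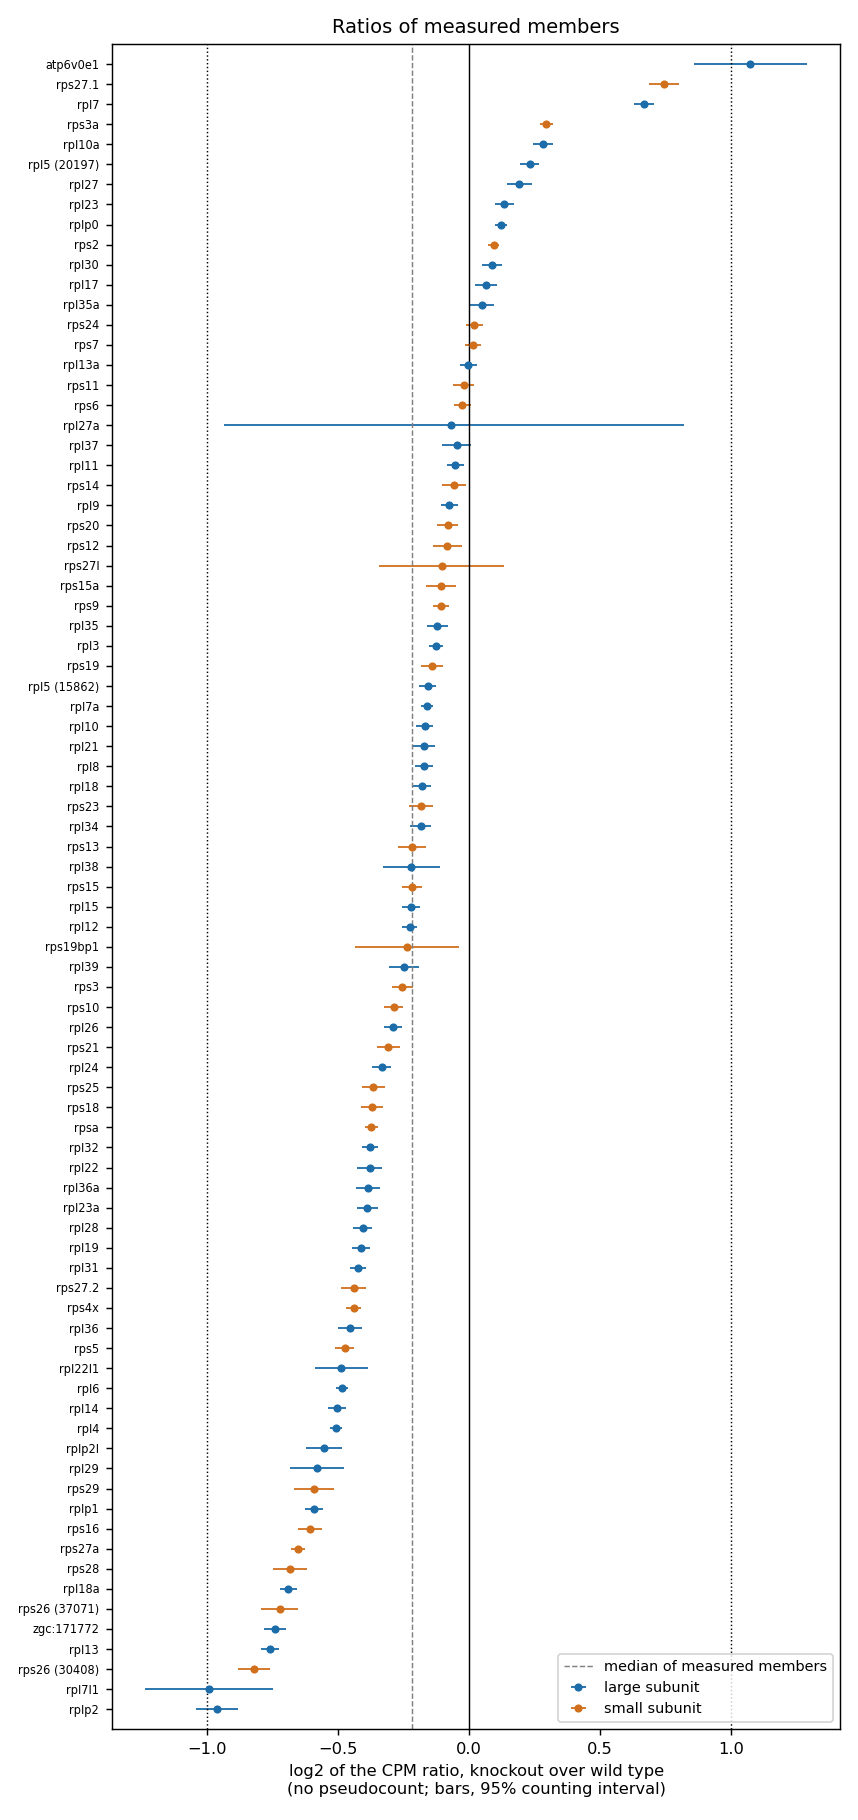
Log2 of the CPM ratio, knockout over wild type, without pseudocount (x axis), for 83 of the 87 measured members in order of ratio, with 95% counting intervals as bars; numbers after a name are the last digits of the identifier where names repeat. The median of all 87, -0.22, is dashed, and of the genes of the subunits rps27.1 and rpl7 stand furthest right and rplp2 furthest left.

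Among the members furthest higher in the knockout, rps27.1 and rpl7 had the largest ratios of the subunit genes. The gene rps27.1, for a zinc-finger protein of the small subunit, had 3475 wild-type and 8138 knockout reads. Its level was 242 CPM against 406 CPM, a 1.68-fold difference (1.61 to 1.74) and a log2 ratio of 0.74. Its log2 ratio was 0.96 above the members' median. The large-subunit gene rpl7 had 8419 and 18688 reads, or 587 CPM and 932 CPM, a 1.59-fold difference (1.55 to 1.63) and a log2 ratio of 0.67. Both were higher under each scaling tried. Other subunit genes above 0 lay closer to the members' median. The small-subunit gene rps3a had 21510 and 36897 reads (log2 ratio 0.30), and rpl10a of the large subunit had 8546 and 14521 reads (log2 ratio 0.28). The gene atp6v0e1 had 240 and 706 reads after rounding, or 16.7 CPM and 35.2 CPM, a 2.11-fold difference (1.82 to 2.45). Estimated counts were not whole for 2 members, atp6v0e1 (240.3 and 705.55) and rpl26 (13438.5 and 15366.7). The sources used here do not state how reads were divided.

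The acidic stalk of the large subunit, which recruits elongation factors, did not keep one direction. Its base protein is encoded by rplp0, which had 25155 wild-type and 38225 knockout reads, or 1754 CPM and 1907 CPM (log2 ratio 0.12). The gene rplp1, for one of the paired proteins that rplp0 carries, had 15150 and 14055 reads, or 1056 CPM and 701 CPM, and was 1.51-fold lower (1.47 to 1.54). The gene rplp2, for its partner, had 3075 and 2206 reads, or 214 CPM and 110 CPM. It was 1.95-fold lower (1.84 to 2.06), with the lowest log2 ratio of the measured subunit genes, -0.96. A second gene for that partner, rplp2l, had 3607 and 3438 reads, or 251 CPM and 172 CPM, and was 1.47-fold lower (1.399 to 1.537). Under each scaling tried, the 3 genes of the paired proteins were lower and rplp0 was higher. Its smallest log2 ratio was 0.11, with DESeq2 size factors.

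Other members furthest lower came from both subunits. Both genes named rps26, for a small-subunit protein at the messenger RNA exit, were low in the knockout. One (ENSDARG00000030408) had 4938 and 3909 reads, 344 CPM against 195 CPM, and was 1.77-fold lower (1.69 to 1.84). The other (ENSDARG00000037071) had 3594 and 3044 reads, 251 CPM against 152 CPM, and was 1.65-fold lower (1.57 to 1.73). The large-subunit gene rpl13 had 16144 and 13328 reads, 1126 CPM against 665 CPM, and was 1.69-fold lower (1.65 to 1.73). The gene zgc:171772, carried as RPL37A in the deposited table, had 9370 and 7841 reads and was 1.67-fold lower (1.62 to 1.72). The nucleolar rpl7l1 had 340 and 239 reads, 23.7 CPM against 11.9 CPM, and was 1.99-fold lower (1.68 to 2.36). Its relative rpl7 was among the members furthest higher. The laminin-receptor protein gene rpsa, of the small subunit, lay within the quartiles of the members, with 23866 and 25776 reads and a log2 ratio of -0.37.

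Among genes for ribosomal proteins made as fusions with ubiquitin or a ubiquitin-like protein, rps27a and an entry of fau were lower in the knockout. The gene rps27a had 23933 wild-type and 21289 knockout reads, 1669 CPM against 1062 CPM, and was 1.57-fold lower (1.54 to 1.60). The naming rule does not take in fau, whose product carries a small-subunit protein. By symbol or zebrafish name 2 genes were fau, with 4353 wild-type and 4791 knockout reads together. The ratio given here is that of ENSDARG00000099022 alone, which had 3795 and 3826 reads and was 1.39-fold lower (1.32 to 1.45). The other entry, which held the remaining reads, went the other way and was higher in the knockout on the TMM scale. The log2 ratios of rps27a and this fau entry were -0.65 and -0.47, and the small-subunit scaffold gene rack1 had -0.24. With library totals rack1 turned above 0 while rps27a and this fau entry stayed below it.

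The protein of rpl11 binds the p53 inhibitor Mdm2 when ribosome assembly is disturbed. The gene rpl11 had 12447 and 16787 reads, or 868 CPM and 838 CPM, a log2 ratio of -0.05. The small-subunit gene rps6, whose protein is the substrate of S6 kinases, had 12032 and 16531 reads, or 839 CPM and 825 CPM, a log2 ratio of -0.02. The gene rps19, mutated in human Diamond-Blackfan anemia, had 8007 and 10140 reads, or 558 CPM and 506 CPM, a log2 ratio of -0.14. These ratios turn positive with library totals. The genes rpl11, rps6, rps19, rps3, rps20 and rpl26 fall outside the rule for named genes and were chosen after their values were seen.

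Several families of members grouped by name divided their reads differently in the knockout, a comparison that needs no scaling. Among the families with more than 1 counted copy, the shares of the rps27 family moved most. In wild type, rps27.1 held 33.4% of its reads (32.4 to 34.3) and rps27.2 held 64.2% (63.2 to 65.1). In the knockout rps27.1 held 53.0% (52.2 to 53.8) and rps27.2 held 44.8% (44.0 to 45.6), so the more counted copy was a different one in each library. The family as a whole had a ratio of 1.06 (1.03 to 1.08), while rps27.2 alone was 1.36-fold lower (1.31 to 1.40). The remaining relative, rps27l, held 2.495% and 2.20%.

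In the rplp2 family, rplp2l held 54.0% in wild type (52.8 to 55.2) and 60.9% in the knockout (59.6 to 62.2). In the rpl5 family, the copy named rpl5-a in the deposited table (ENSDARG00000020197) held 42.8% (42.2 to 43.4) and 49.5% (49.0 to 50.0). Its level was 717 CPM and 841 CPM, and that of the other copy (ENSDARG00000015862) 957 CPM and 859 CPM. The split was steadier in the rps26 family, where ENSDARG00000037071 held 42.1% (41.1 to 43.2) and 43.8% (42.6 to 45.0). In the rpl22 family, rpl22l1 held 18.0% (17.2 to 18.8) and 16.9% (16.1 to 17.7). Copies can share reads, so each copy's count is uncertain.

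**Figure D4:**
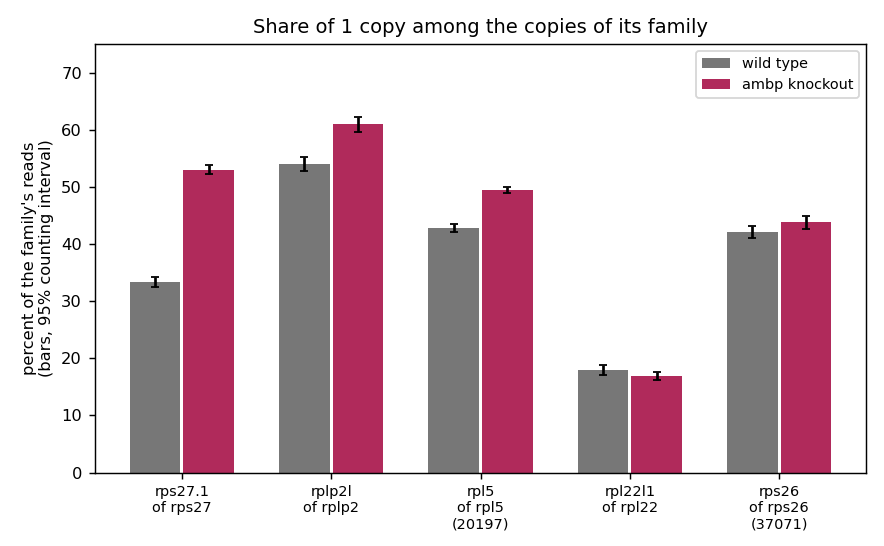
Percent of a family's reads held by 1 named copy (y axis, from 0) in the wild-type and knockout library, for 5 families with more than 1 counted copy; bars on the columns are 95% counting intervals and digits in brackets are the last digits of the identifier. The share of rps27.1 went from 33.4% to 53.0%, and that of rpl22l1 stayed near 18.0% and 16.9%.

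Elongation factors are given beside the ribosomal proteins, and so is a separate list of other messages with an oligopyrimidine start in mammals. The difference between the lists was not tested. Of 9 measured elongation factor genes, none differed 2-fold, where 11.8% of all measured genes did, 5 were below 0 and the median log2 ratio was -0.13. The most counted was eef1a1l1, which brings aminoacyl-tRNA to the ribosome, with 99321 and 112224 reads (log2 ratio -0.31), followed by the translocase gene eef2b with 34545 and 44036 reads (-0.13). The genes furthest from 0 were eef1da, of the exchange factor complex, at -0.60, and eif5a, which aids elongation at difficult sequences, at -0.58. Of 20 measured genes of the oligopyrimidine list none differed 2-fold, 15 were below 0 and the median was -0.17. Their most counted genes were tpt1 (-0.20) and naca, of the nascent polypeptide complex (-0.23), and the furthest from 0 were eif3eb (-0.84) and the histone chaperone gene nap1l1 (0.83). With library totals both medians lay above 0, at 0.12 and 0.05.

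The genes that assemble ribosomes had lower ratios than the genes of the ribosome itself. Of 94 measured assembly factor genes, 38 were at least 2-fold lower and none was 2-fold higher, where 6.4% of all measured genes were lower and 5.4% higher. The median log2 ratio was -0.80, with 84 genes below 0 and 10 above. All 94 had at least 1 CPM in both libraries. With library totals the count was 24 and the median -0.58, and with FPKM they were 18 and -0.55. In these settings 485 of 11746 and 358 of 9472 measured genes were 2-fold lower. The medians of all genes were then 0.22 and 0.19. The list as a whole took 0.302% of wild-type reads and 0.239% of knockout reads. For the ribosomal protein genes these shares were 5.83% and 6.01%, an order that turned without mitochondrial transcripts (6.72% and 6.64%).

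The core proteins of the small nucleolar particles, which methylate and pseudouridylate ribosomal RNA, included some of the lowest ratios. All 7 were below 0 and 6 were at least 2-fold lower, with a median of -1.49. The methyltransferase gene fbl had 1004 wild-type and 296 knockout reads, 70.0 CPM against 14.8 CPM, and was 4.74-fold lower (4.16 to 5.41). The pseudouridine synthase gene dkc1 had 359 and 118 reads, 25.03 CPM against 5.89 CPM, and was 4.25-fold lower (3.44 to 5.28). The more abundant nop56, a scaffold of the methylating particles, had 1769 and 1193 reads and was 2.07-fold lower (1.92 to 2.23), and nhp2 was at -0.58.

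Factors of both subunits shared the direction. Of 39 genes of large-subunit maturation 36 were below 0, 17 were 2-fold lower and the median was -0.96. The gene rrs1, which loads the particle of rpl5 and rpl11 onto the large subunit in yeast, had 403 and 107 reads, 28.1 CPM against 5.34 CPM, and was 5.26-fold lower (4.24 to 6.58), the lowest ratio of the list. The most counted assembly gene, nsa2, had 8960 and 4817 reads and was 2.60-fold lower (2.51 to 2.69). The next, rsl24d1, which in yeast holds the place of rpl24 in early particles, had 5966 and 6867 reads and a log2 ratio of -0.28. Of 42 genes of small-subunit processing 38 were below 0, 15 were 2-fold lower and the median was -0.69, with nol6 at -1.89 and heatr1 at -1.73. The 3 groupings by step do not take in all 94 measured genes. All 38 that were 2-fold lower are in them, and the genes left out include some above 0. These groupings, and the genes dkc1, nop56, nhp2, nol6 and heatr1, were chosen after the values were seen and are given as descriptions. Against the direction stood the nucleolar helicase gene ddx21 (1777 and 4170 reads, log2 ratio 0.74), nop14 (71 and 180 reads, 0.75) and the nucleolin gene ncl (3424 and 5556 reads, 0.21), all chosen after their values were seen.

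RNA polymerase I, which transcribes ribosomal RNA, was low in reads and mostly lower. Of 13 measured genes 11 were below 0, 3 were at least 2-fold lower, against 6.4% of all measured genes, none was 2-fold higher, against 5.4%, and the median log2 ratio was -0.68. With library totals 2 were 2-fold lower, where 485 of all 11746 measured genes were, and the median was -0.45. The largest subunit gene, polr1a, had 511 and 441 reads (-0.67), polr1c had 101 and 47 (-1.27) and polr1d, shared like polr1c with RNA polymerase III, had 58 and 21 (-1.30). The transcription factor gene ubtf, most counted in the knockout, had 306 and 497 reads (0.21). Mitochondrial ribosomal protein genes had a median of -0.25 over 77 genes on the TMM scale, with 53 below 0. Of the 77, 7 were at least 2-fold lower and 1 higher, where 6.4% of all measured genes were 2-fold lower and 5.4% higher. With library totals their median was -0.009 and with FPKM -0.007, and the medians of all genes were then 0.22 and 0.19. On the TMM scale mrpl32 had 936 and 1090 reads (-0.26), mrpl23 615 and 489 (-0.79), mrpl54 was at -1.44 and mrps31 at -1.22.

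**Figure D5:**
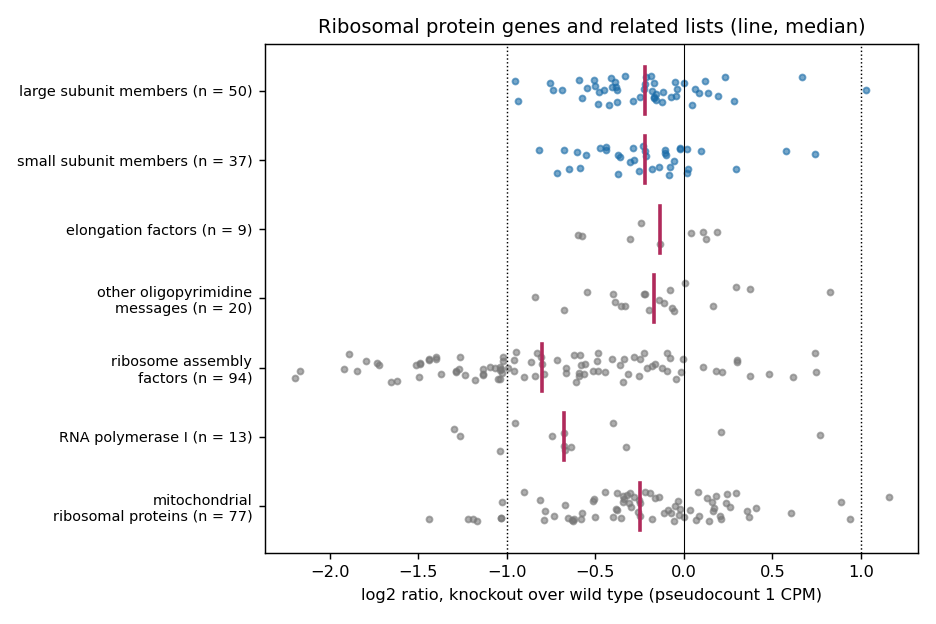
Log2 ratio of knockout over wild type with a pseudocount of 1 CPM (x axis) for each measured gene of the ribosomal protein genes and of 5 related lists (rows), with the median as a line and dotted lines at 2-fold; points are spread up and down only so that they can be seen. The assembly factors reach furthest left, with a median of -0.80, and the ribosomal protein genes of both subunits lie around -0.22.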

How the data were processed

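RNA-seq was made from poly(A)-selected liver RNA of 1 wild-type and 1 ambp knockout library, per the labels' protocols. The authors deposited 1 table of 25939 genes with estimated counts and FPKM. The submitters' processing notes name HISAT2, featureCounts and GRCz11, without versions. Of the deposited estimated counts, 5.45% in wild type and 6.01% in the knockout were not whole, and they were rounded. The deposited FPKM values were used only for levels per length and as an alternative scaling. All 4 sample columns were used. Of the gene identifiers, 23499 matched a zebrafish name.

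TMM factors (0.916 and 1.09) came from edgeR 4.0.16 in R 4.3.3, and 1 read was worth 0.0697 and 0.0499 CPM. Genes with at least 1 CPM in a library were measured. Log2 ratios used a pseudocount of 1 CPM, and folds none. Intervals at 95% are exact Poisson for levels and Clopper-Pearson for ratios and shares; PCR copies are not independent molecules, so they cover counting error only. With 1 library per genotype no test was made. Named members were those 2-fold different, the 6 highest and 6 lowest by ratio (at least 100 reads) and by FPKM, the stalk genes, rpsa and copies; in other lists, the 2 most abundant and the 2 most different. The members and lists were chosen with earlier results of these data known. Alternatives were library totals, DESeq2 1.42.0 size factors, FPKM, other pseudocounts and other filters. Promoter and protein sequences were not used here, and the values of some genes are not reported here, although counts and medians include them.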

Additional observations from a re-analysis of the deposited data

How the results depend on the processing

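No paired analysis was possible because each genotype had 1 library, and no library could be left out. Scaling decided the sign of the members' median, -0.22 with TMM. With library totals the medians over all, large-subunit and small-subunit members were 0.03386, 0.03308 and 0.03592, without the 20 most counted genes 0.01593, 0.01505 and 0.01781, and with FPKM 0.02342, 0.02579 and 0.01461. The log2 ratio of the summed level was then 0.0438, 0.0257 and 0.0404, and 48, 46 and 46 members lay above 0. Of all measured genes, 64.7%, 63.6% and 63.9% lay above 0 in these settings. The members' median less that of all genes shrank to -0.0128 among genes at 100 CPM or more, a filter chosen after seeing the data. The count of members 2-fold higher, 1, was 0 with a pseudocount of 5 CPM, with both names required, without the 3 genes that are not subunits and at 100 CPM or more. At 1.5-fold the counts were 3 higher and 12 lower. The members' share of reads was 9.49% and 9.66% without the 20 most counted genes, 6.72% and 6.64% without mitochondrial transcripts, and 5.71% and 5.90% with both names required. The 38 assembly factors 2-fold lower became 24 with library totals, 24 without the 20 most counted genes, 18 with FPKM and 15 with a pseudocount of 5 CPM. Over all measured genes these settings gave 485 of 11746, 500 of 11746, 358 of 9472 and 319 of 11634 as 2-fold lower. The median of the assembly factors lay between -1.02 and -0.50 in every setting tried. The 3 RNA polymerase I genes 2-fold lower became 2 with library totals, 2 without the 20 most counted genes and 1 with FPKM. The count was 5 with a pseudocount of 0.1 CPM, 0 with a pseudocount of 5 CPM and 1 at 10 CPM or more, where fewer genes were counted. Otherwise the cause was not tested. Over all measured genes, 1212 of 11634 were 2-fold lower with a pseudocount of 0.1 CPM and 433 of 4555 at 10 CPM or more. With library totals the median of all genes was 0.22. Depth limits only the few members under 1000 reads.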

Other observations

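Genes known to control ribosomal protein synthesis were a further list, with 18 genes measured. Their median log2 ratio was -0.30, with 11 below 0 and 7 above, where 49.8% of all measured genes lay above 0. Of the 18, 3 were at least 2-fold lower and 1 higher, where 6.4% of all measured genes were 2-fold lower and 5.4% higher. The median was -0.058 with library totals, -0.029 with FPKM and -0.49 at 10 CPM or more. The medians of all genes were then 0.22, 0.19 and -0.098. The Myc gene mycb, a transcription factor known to drive ribosome production in mammals, had 1922 wild-type and 348 knockout reads, 134 CPM against 17.4 CPM, and was 7.72-fold lower (6.88 to 8.68). Its relative myca had 5 and 59 reads and a log2 ratio of 1.55. Both genes named eif4ebp3, for a binding protein of the cap-binding factor, were lower. One (ENSDARG00000041607) had 1790 and 695 reads and was 3.60-fold lower (3.30 to 3.93), and the other (ENSDARG00000054916) had 1785 and 913 reads and was 2.73-fold lower (2.52 to 2.96). Their relative eif4ebp2 had 1426 and 1830 reads, a log2 ratio of -0.12. The kinase gene mtor had 202 and 443 reads and a log2 ratio of 0.62. The genes myca and mtor were chosen after their values were seen.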
